A study of Rattus norvegicus with 6 samples.

Results

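The 10 genes described here encode 6 matrix metalloproteinases (MMPs: *Mmp2*, *Mmp9*, *Mmp14*, *Mmp15*, *Mmp16* and *Mmp17*) and the 4 tissue inhibitors of metalloproteinases (TIMPs: *Timp1* to *Timp4*). They were matched by gene symbol, 1 row each, among the 22050 genes of the deposited RNA-seq table. Spinal cord tissue came from male Sprague–Dawley rats aged 8–10 weeks, of which 3 libraries were from rats with spared nerve injury (SNI-NP), a surgical model of neuropathic pain in which part of the sciatic nerve is injured, and 3 were from sham-operated rats. No other agent or allele was named for either group. The time after surgery, the cord segment, the side taken for sequencing and whether a library held 1 rat or several were not given in the sources used here, so p-values measure the spread between libraries. All 10 genes passed the filter on low counts, among 14426 genes tested.

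MMPs are zinc-dependent proteases that cut proteins of the extracellular matrix and of cell surfaces, and most are made as inactive precursors. TIMPs bind and block the active enzymes. The gelatinases *Mmp2* and *Mmp9* are the members best known from nerve injury, where they are linked to opening of the blood–nerve and blood–spinal cord barriers, myelin protein cleavage and activation of cytokine precursors. At the cell surface, the MMP14 protein holds TIMP2 as a receptor for the MMP2 precursor, so that TIMP2 takes part in activating MMP2 as well as in blocking MMPs.

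The labelled tissue was checked against its markers. *Prx*, a myelin gene of Schwann cells, was at 4032 to 4639 CPM in sham and 4669 to 6419 CPM in SNI-NP libraries (CPM are counts scaled to the library total with TMM factors). The astrocyte gene *Gfap* was at 130.4 to 319.6 FPKM (counts scaled by gene length and library total), the neuronal gene *Snap25* at 76.1 to 161.9 FPKM, and *Scn10a*, a sodium channel gene of sensory ganglion neurons, at 2.11 to 42.9 FPKM. All libraries thus held peripheral myelin and sensory ganglion transcripts beside those of spinal cord, and a lower level of a transcript in such tissue cannot be told apart from fewer cells of the type that makes it. SNI-NP replicate 1 stood apart in ganglion content. The 8 ganglion neuron markers summed to 231.0 CPM there, against 714.0 to 2104 CPM in the other libraries.

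Of the 10 genes, 0 passed at an adjusted p under 0.05 between SNI-NP and sham rats, with adjustment over all 14426 genes tested (Benjamini-Hochberg adjustment, quasi-likelihood test of edgeR). The adjusted threshold was passed by 0 genes of the table, or 0% of those tested, while 1565 genes, or 10.8%, had an unadjusted p under 0.05. DESeq2 called 194 of 14780 genes at an adjusted p under 0.05, or 1.31%, and 0 of the members. Before adjustment 1 of the 10 members passed, *Mmp15*, which was higher in SNI-NP rats, in a table where 4.91% of genes were called in that direction. For 3 members, *Mmp2*, *Mmp15* and *Timp2*, every SNI-NP library lay above every sham library in CPM, as it did for 10.4% of all genes tested. In the deposited FPKM this held for *Mmp15* but not for *Mmp2* or *Timp2*. For 0 members did every SNI-NP library lie below every sham library, a pattern held by 8.15% of all genes. The size of each difference is given as the log2 ratio of SNI-NP to sham rats, with its standard error (SE). The log2 ratios of the members ran from -0.29 to 0.92, with a median of 0.14 against 0.0057 over all genes, and 6 of the 10 were positive, as were 7341 of the 14426 genes tested.

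**Figure D1:**
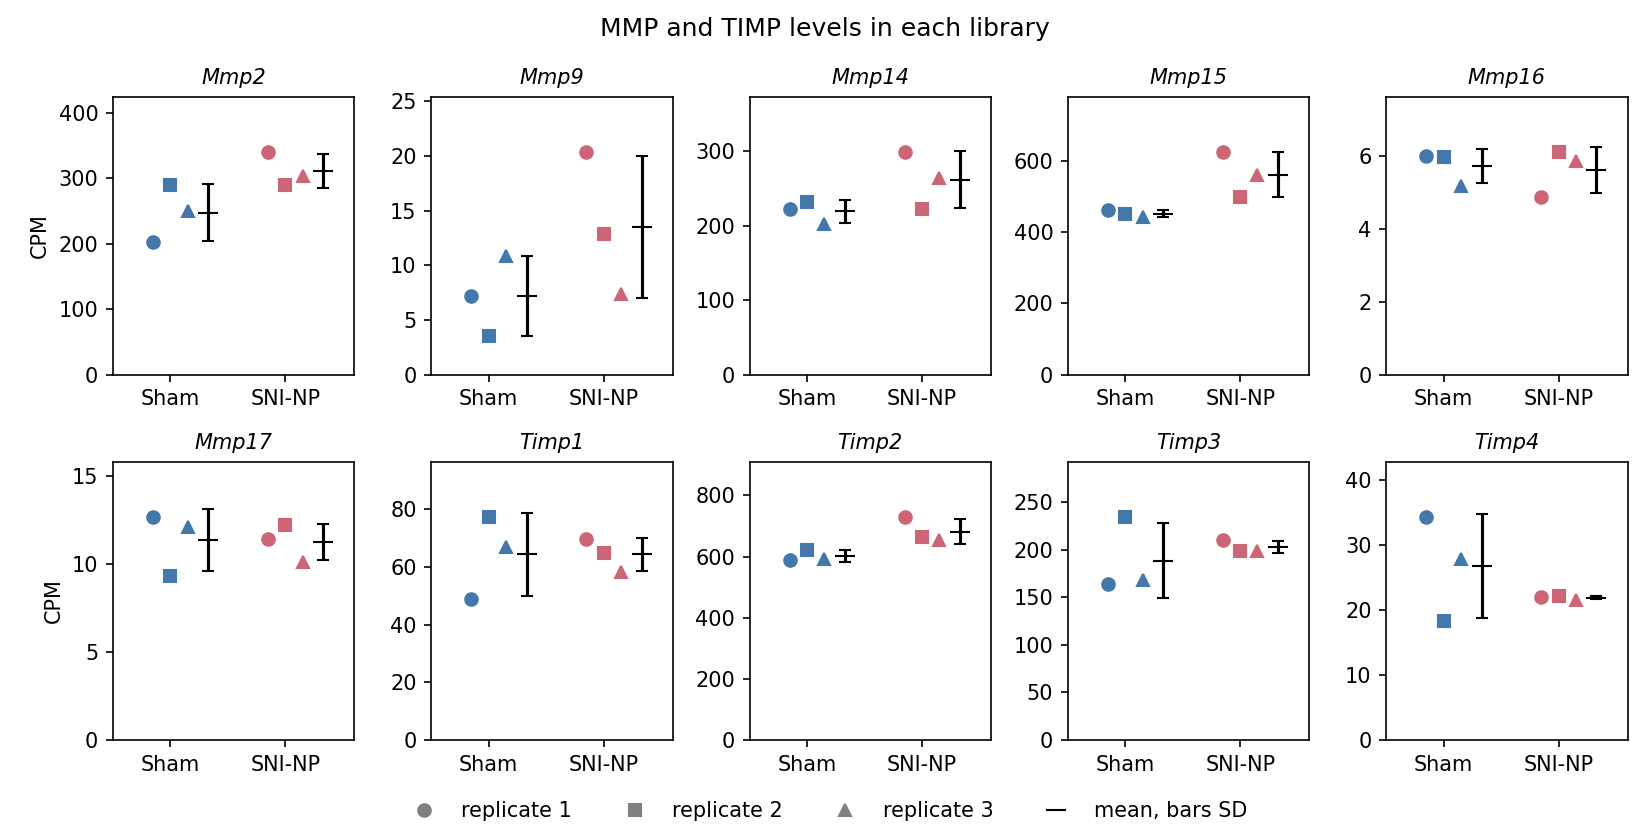
CPM of each of the 10 genes (vertical axes, each from 0) in the 3 sham libraries (blue) and the 3 SNI-NP libraries (red), with marker shapes for replicate numbers and the mean with SD in black. The SNI-NP points of *Mmp2*, *Mmp15* and *Timp2* all lie above the sham points on this scale, whereas the other genes overlap.

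The order of the levels was compared per length, in FPKM. *Timp2* was the most abundant member, at 385.8 FPKM on average (range 354.6 to 420.0 over 6 libraries), above 99.0% of the genes tested and above the highest library of every other member. Below it came *Mmp15* (mean 126.3 FPKM), *Timp3* (112.1), *Mmp14* (98.5), *Mmp2* (90.8) and *Timp1* (87.0), and in this run the libraries of each gene overlapped those of the next. *Timp4* followed at 14.3 FPKM, clear of *Timp1* above it and of *Mmp17* below it. The 3 least abundant members, *Mmp17* (4.01 FPKM), *Mmp9* (3.27) and *Mmp16* (1.61), again overlapped their neighbours. *Mmp16* was above 16.0% of the genes tested. The libraries of *Mmp14* and *Mmp2* overlapped those of both *Timp1* and *Timp3*, while every *Mmp15* library, at 111.2 FPKM or more, was above every *Timp1* library, at 108.5 FPKM or less.

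**Figure D2:**
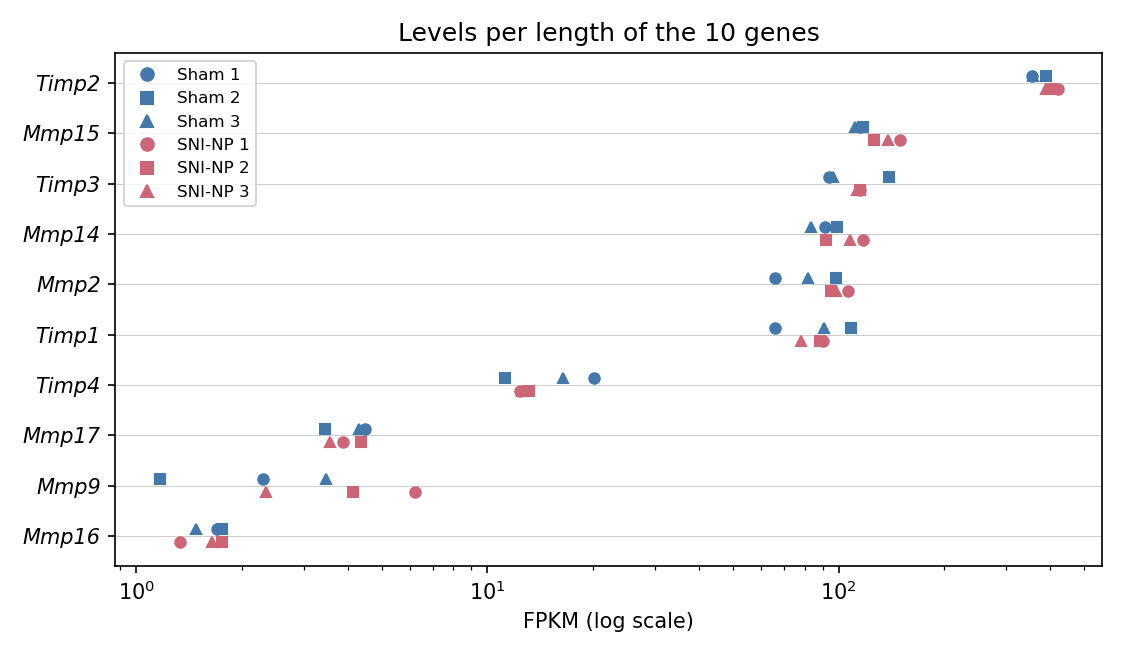
FPKM of each gene (log horizontal axis) in each of the 6 libraries, sham in blue above and SNI-NP in red below each line, ordered by the mean. *Timp2* stands alone at 354.6 FPKM and above, 5 genes lie together between 66.0 and 149.6 FPKM, and *Timp4*, *Mmp17*, *Mmp9* and *Mmp16* lie at 20.1 FPKM and below.

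The RefSeq promoter table (rat build GRCr8, which is not the build of the counts) held 5 of the 10 members, namely *Mmp15* and the 4 TIMPs. The 250 bases before the annotated start are shown for the member with the smallest p-value, for the most abundant inhibitor and for the inhibitor best known to be induced by injury. They lie at chr19:9691001-9691250 (*Mmp15*), chr10:104089215-104089464 (*Timp2*) and chrX:3771123-3771372 (*Timp1*), all on the minus strand and written 5′ to 3′ along the gene. Capitals mark GGGCGG, the core of a GC box, on either strand (read as CCGCCC on the other), and TGAGTAA, an AP-1-like site in *Timp1* that was added after the sequence was read.
Mmp15: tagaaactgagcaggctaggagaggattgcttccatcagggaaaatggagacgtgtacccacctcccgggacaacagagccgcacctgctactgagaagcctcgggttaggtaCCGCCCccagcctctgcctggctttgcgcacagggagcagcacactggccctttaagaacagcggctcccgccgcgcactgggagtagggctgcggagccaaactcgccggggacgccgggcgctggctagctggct
Timp2: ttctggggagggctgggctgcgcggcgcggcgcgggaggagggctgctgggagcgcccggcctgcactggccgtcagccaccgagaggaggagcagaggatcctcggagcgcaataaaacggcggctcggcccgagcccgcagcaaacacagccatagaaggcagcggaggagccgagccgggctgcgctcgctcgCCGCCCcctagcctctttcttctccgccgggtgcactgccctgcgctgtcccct
Timp1: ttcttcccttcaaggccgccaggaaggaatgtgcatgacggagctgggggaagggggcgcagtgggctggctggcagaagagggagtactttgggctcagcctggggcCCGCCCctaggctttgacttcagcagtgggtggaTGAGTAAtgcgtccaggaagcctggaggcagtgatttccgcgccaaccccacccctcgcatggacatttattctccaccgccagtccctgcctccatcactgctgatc

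Each of these 3 windows held 1 GC box, whose first base was 137 bases before the start of *Mmp15*, 54 before that of *Timp2* and 142 before that of *Timp1*. *Timp3* held 3 GC boxes and *Timp4* held 0. Of all 33469 promoters of this length in the table, 30.5% held GGGCGG on either strand. The AP-1 letters TGANTCA were found in 0 of the 5 windows and in 6.34% of all promoters, and TATAAA in 0 of the 5 and in 12.9%. TGAGTAA stood 108 bases before the start of *Timp1*, and 2.38% of all promoters held it. AP-1 is the dimer of Fos and Jun proteins that many *MMP* and *TIMP* promoters respond to. These matches are letters in a window and were not tested for binding.

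*Mmp15* (ENSRNOG00000012622) encodes a membrane-anchored MMP with a transmembrane segment. It was at 462, 452 and 443 CPM in sham replicates 1, 2 and 3, and at 625, 500.0 and 561 CPM in SNI-NP replicates 1, 2 and 3. The sham libraries lay within a narrow band, with an SD of 9.48 CPM, and all 3 SNI-NP libraries were above it. The fold change was 1.24, a log2 ratio of 0.31 (SE 0.11, 95% interval 0.05 to 0.58), and edgeR gave an unadjusted p of 0.0267 and an adjusted p of 0.436. DESeq2 gave an adjusted p of 0.26. In 6 further fits, each lacking 1 library, the log2 ratio lay between 0.23 and 0.39. An unadjusted p under 0.05 was reached in 2 of them, which lacked sham replicate 2 or SNI-NP replicate 2. Without SNI-NP replicate 1, which had the highest level, the log2 ratio was 0.23 (unadjusted p = 0.0874, adjusted p = 0.478 by edgeR).

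*Mmp14* (ENSRNOG00000010947) encodes the best studied membrane-type MMP, the surface activator of the MMP2 precursor. Its levels were 223, 232 and 203 CPM in the sham replicates and 299, 222 and 264 CPM in the SNI-NP replicates. SNI-NP replicate 2 lay among the sham libraries, while the other 2 were above them. The log2 ratio of 0.26 (SE 0.13, 95% interval -0.05 to 0.56) had an edgeR adjusted p of 0.503. It ranged from 0.15 without SNI-NP replicate 1 to 0.36 without SNI-NP replicate 2, where the unadjusted edgeR p was 0.0224.

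*Mmp16* (ENSRNOG00000005708), a further transmembrane MMP, and *Mmp17* (ENSRNOG00000023643), whose enzyme is held to the membrane by a GPI anchor, were low and close to equal between the groups. *Mmp16* had 89 to 106 counts in the sham libraries and 85 to 110 in the SNI-NP libraries. Its log2 ratio was -0.03, and the 95% interval of -0.47 to 0.42 covers changes of either sign. *Mmp17* was at 9.35 to 12.7 CPM in sham libraries and 10.1 to 12.2 CPM in SNI-NP libraries, with a log2 ratio of -0.01 (95% interval -0.42 to 0.39).

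*Mmp2* (ENSRNOG00000016695), the gelatinase that is made constitutively by many stromal and glial cells, was at 203, 290.0 and 249 CPM in the sham replicates. The SNI-NP replicates had 340.0, 290.3 and 304 CPM. In CPM every SNI-NP library was above every sham library, although SNI-NP replicate 2 and sham replicate 2 were nearly equal. In FPKM sham replicate 2, at 98.2, was above SNI-NP replicates 2 and 3, at 95.3 and 98.0. The log2 ratio was 0.33 (fold change 1.26, SE 0.15, 95% interval -0.01 to 0.68), and edgeR gave an unadjusted p of 0.0582 and an adjusted p of 0.475. It was 0.46 without sham replicate 2 (unadjusted p = 0.00960, adjusted p = 0.230 by edgeR) and 0.19 without sham replicate 1, the library with the lowest level.

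*Mmp9* (ENSRNOG00000017539), the inducible gelatinase stored in granules of neutrophils, had the largest fold change of the 10 genes and the widest spread. It had 120, 62 and 186 counts in the sham replicates and 354, 232 and 128 counts in the SNI-NP replicates. In CPM these were 7.20, 3.49 and 10.8 against 20.4, 12.9 and 7.42, so SNI-NP replicate 3 fell among the sham libraries. The SD was 51.1% of the mean among sham libraries and 47.9% among SNI-NP libraries, against 2.10% and 11.2% for *Mmp15*. The fold change was 1.89, a log2 ratio of 0.92 (SE 0.48, 95% interval -0.19 to 2.03). The adjusted p was 0.504 with edgeR and 0.428 with DESeq2. Leaving out 1 library moved the log2 ratio between 0.50, without SNI-NP replicate 1, and 1.32, without sham replicate 3. An unadjusted edgeR p under 0.05 was reached without sham replicate 3 and also without SNI-NP replicate 3, where the log2 ratio was 1.18.

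Markers of neutrophils and of blood are given beside *Mmp9*, and 0 of them passed the adjusted threshold with edgeR or DESeq2. All 11 tested genes of the granulocyte list had a positive log2 ratio (median 1.05). At an unadjusted edgeR p under 0.05, 3 passed, namely *Prtn3*, *Mpo* and *Ctsg*, which encode granule enzymes. Of all genes tested, 10.8% passed in either direction and 4.91% passed as higher in SNI-NP libraries. The 11 genes summed to 45.3 to 143 CPM in sham libraries and 108 to 215 CPM in SNI-NP libraries, which overlapped. *Ltf*, another granule gene, had 0 to 2 counts in every library and was not tested. The 4 tested blood genes, 3 hemoglobin genes and *Alas2*, had positive log2 ratios (median 0.99). Before adjustment 3 of them passed (*Alas2*, *Hbb* and *Hba-a1*), against the same 4.91% of all genes. The 4 blood genes summed to 954 to 2327 CPM in sham libraries and 2059 to 4955 CPM in SNI-NP libraries. SNI-NP replicate 1 was highest of the 6 libraries in *Mmp9*, in the granulocyte sum and in the blood sum, and sham replicate 2 was lowest in *Mmp9* and in the blood sum. The granulocyte sum was lowest in sham replicate 1, at 45.3 CPM against 65.7 CPM in sham replicate 2. It was second highest in SNI-NP replicate 3, at 157 CPM, where *Mmp9* lay within the sham range. The part of neutrophils or blood in the level of *Mmp9* was not tested.

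Among the 5 genes whose log2 CPM followed *Mmp9* most closely over the 6 libraries were *Tsen54* (Pearson r = 0.987), *Sf3a1* (0.985), *Rapgef1* (0.983) and *Hba-a2* (0.981). The last is a hemoglobin alpha gene, with 177 to 514 CPM in sham libraries and 415 to 1100 CPM in SNI-NP libraries. The first 3 of these varied less, *Rapgef1* lying between 49.8 and 66.0 CPM, whereas *Mmp9* varied from 3.49 to 20.4 CPM. These are descriptions over 6 points that share depth, tissue content and group, picked as the highest among all genes tested.

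*Timp2* (ENSRNOG00000003148), the most abundant inhibitor and the partner of MMP14 in activating MMP2, had 9818, 11060 and 10179 counts in the sham replicates and 12663, 11929 and 11293 in the SNI-NP replicates. Scaled, these were 589, 623 and 592 against 728, 662 and 655 CPM, with no overlap between the groups on this scale. In FPKM the groups met, with sham replicate 2 at 390.05 and SNI-NP replicate 3 at 390.02. The log2 ratio was 0.18 (fold change 1.13, SE 0.10, 95% interval -0.05 to 0.41), and the edgeR adjusted p was 0.523. The difference was in the same direction in each fit that left out 1 library, between 0.13 and 0.21.

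*Timp1* (ENSRNOG00000010208), a secreted inhibitor widely used as a marker of glial and Schwann cell response to injury, had nearly equal mean levels, 64.3 ± 14.3 CPM for sham and 64.3 ± 5.75 CPM for SNI-NP (SD, n = 3 each). Its sham libraries were at 48.9, 77.2 and 67.0 CPM and its SNI-NP libraries at 69.8, 64.9 and 58.3 CPM. The SNI-NP values lay inside the range of the sham values. The log2 ratio was -0.00092 with a 95% interval of -0.41 to 0.40, which leaves room for a change of either sign within those bounds. The fitted value was -0.19 without sham replicate 1 and 0.15 without sham replicate 2.

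The genes most like *Timp1* over the 6 libraries were *Foxs1* (Pearson r = 0.993), *Cep112* (0.988), *Scara5* (0.985), *Apod* (0.977) and *AABR07029651.1* (0.976). *Apod*, which encodes the lipid carrier apolipoprotein D, was at 1688 CPM in sham replicate 1 and 3246 CPM in sham replicate 2, the libraries with the lowest and highest *Timp1*. *Cep112* was low, at 0.720 to 2.87 CPM.

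*Timp3* (ENSRNOG00000004303), whose protein stays bound to the matrix, was at 164, 234 and 168 CPM in the sham replicates and 210.1, 199 and 199 CPM in the SNI-NP replicates. The SNI-NP libraries were close to each other, and sham replicate 2 was above all of them. The log2 ratio was 0.10 (95% interval -0.25 to 0.46, edgeR adjusted p = 0.818), but 0.29 without sham replicate 2, where the unadjusted edgeR p was 0.0164. It was -0.012 without sham replicate 1 and -0.0065 without sham replicate 3.

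*Timp4* (ENSRNOG00000007955), the inhibitor with the most restricted tissue range, had the lowest log2 ratio of the 10 genes, -0.29 (SE 0.22, 95% interval -0.80 to 0.22, edgeR adjusted p = 0.624). Its levels were 34.3, 18.3 and 27.8 CPM in the sham replicates and 22.0, 22.2 and 21.6 CPM in the SNI-NP replicates. The SNI-NP libraries had an SD of 0.298 CPM, while the sham libraries spanned a range that held all of them. Without sham replicate 2 the log2 ratio was -0.50 (unadjusted p = 0.0108, adjusted p = 0.237 by edgeR), and without sham replicate 1 it was -0.08. The 7 astrocyte markers summed to 1839, 757 and 1353 CPM in sham replicates 1, 2 and 3, the same order as *Timp4*, and to 1275, 936 and 904 CPM in the SNI-NP replicates, where the order differed. In sham replicates 1, 2 and 3 this order also held for the oligodendrocyte sum (40962, 30402 and 33907 CPM). It held for the oligodendrocyte precursor sum too (418, 317 and 338 CPM). The part of astrocyte or oligodendrocyte content in *Timp4* was not tested.

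**Figure D3:**
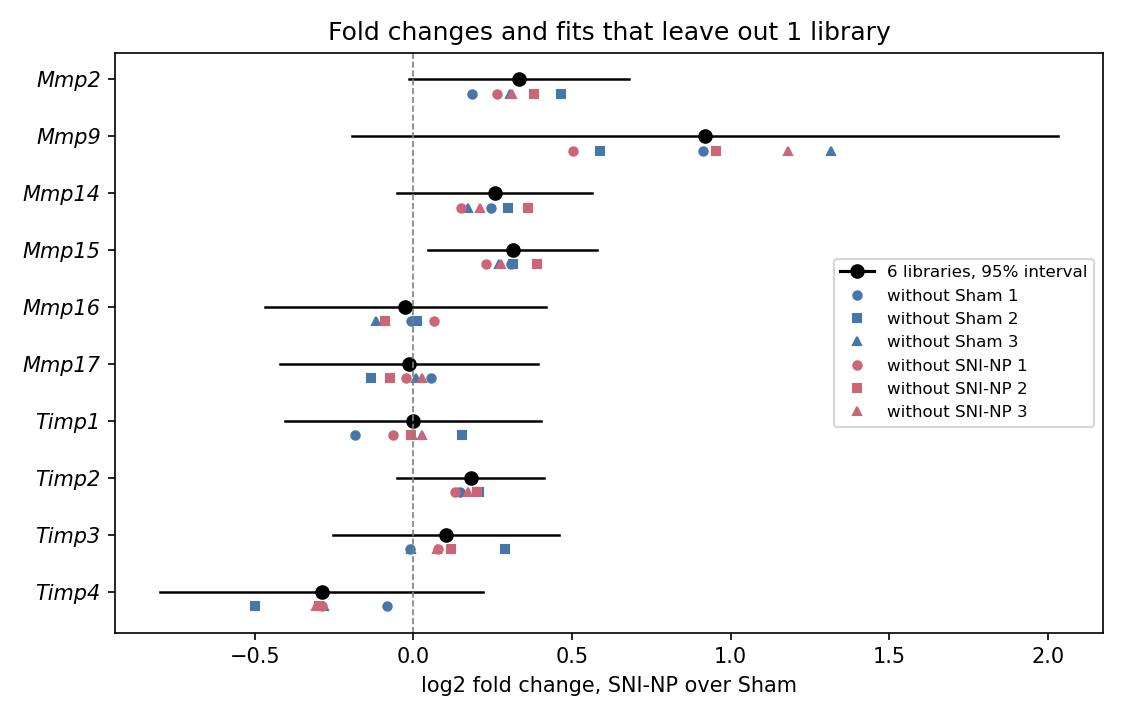
Log2 ratio (log2 fold change) of SNI-NP over sham for each gene (black, with its 95% interval from edgeR) and the values when 1 library is left out (coloured by the group of that library, shaped by its replicate number). Only the interval of *Mmp15* lies above 0, from 0.05 to 0.58, and *Mmp9* has the widest interval.

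The highest and lowest levels of the members were spread unevenly over the libraries. SNI-NP replicate 1 was the highest of the 6 libraries for 5 of the 10 members (*Mmp2*, *Mmp9*, *Mmp14*, *Mmp15* and *Timp2*) and the lowest for *Mmp16*. Sham replicate 1 was the lowest for *Mmp2*, *Timp1*, *Timp2* and *Timp3* and the highest for *Mmp17* and *Timp4*. Sham replicate 2 was the highest for *Timp1* and *Timp3* and the lowest for *Mmp9*, *Mmp17* and *Timp4*. Sham replicate 3 was the lowest for *Mmp14* and *Mmp15*, and SNI-NP replicate 2 was the highest for *Mmp16*. SNI-NP replicate 3 was neither the highest nor the lowest for any member. Without sham replicate 2, 4 of the members passed at an unadjusted edgeR p under 0.05 (*Mmp2*, *Mmp15*, *Timp3* and *Timp4*), while 0 passed without SNI-NP replicate 1 and 0 without sham replicate 1. The counts over all genes moved between these fits too, with 2134 of 14593 genes passing without sham replicate 2, 1907 of 14577 without SNI-NP replicate 1 and 908 of 14616 without sham replicate 1.

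Peripheral glia and connective tissue markers are given beside *Mmp2*, *Mmp14*, *Mmp15* and *Timp2*. *Prx* had a log2 ratio of 0.36 (SE 0.15) and passed before adjustment, and every SNI-NP library was above every sham library. Of the 7 tested genes of meninges and fibroblasts, 6 had positive log2 ratios (median 0.30) and 1 passed before adjustment, the collagen gene *Col1a1*. Their sums were 4937 to 6688 CPM and 6302 to 7756 CPM. SNI-NP replicate 1 was the highest library for *Prx* and for the fibroblast sum. In contrast, 0 of 8 neuron genes and 0 of 7 astrocyte genes had a positive log2 ratio, with medians of -0.46 and -0.20, and 0 of the 8 microglia genes passed. The neuron genes *Slc17a6* and *Snap25* and the astrocyte gene *Slc1a2* were lower before adjustment, and *Slc17a6* passed the adjusted threshold with DESeq2 (adjusted p = 0.00664) and not with edgeR (adjusted p = 0.307). Of the remaining lists, 1 of 7 endothelial and pericyte genes (*Pdgfrb*) and 1 of 5 skeletal muscle genes (*Myh4*) passed before adjustment. In the other lists 0 of 7 oligodendrocyte, 0 of 5 precursor, 0 of 8 ganglion neuron and 0 of 6 bone genes did. Among all genes tested, 10.8% passed. The muscle sum was 12.1 to 72.1 CPM among sham and 10.2 to 422.7 CPM among SNI-NP libraries. The part of tissue content in the members' levels was not tested.

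**Figure D4:**
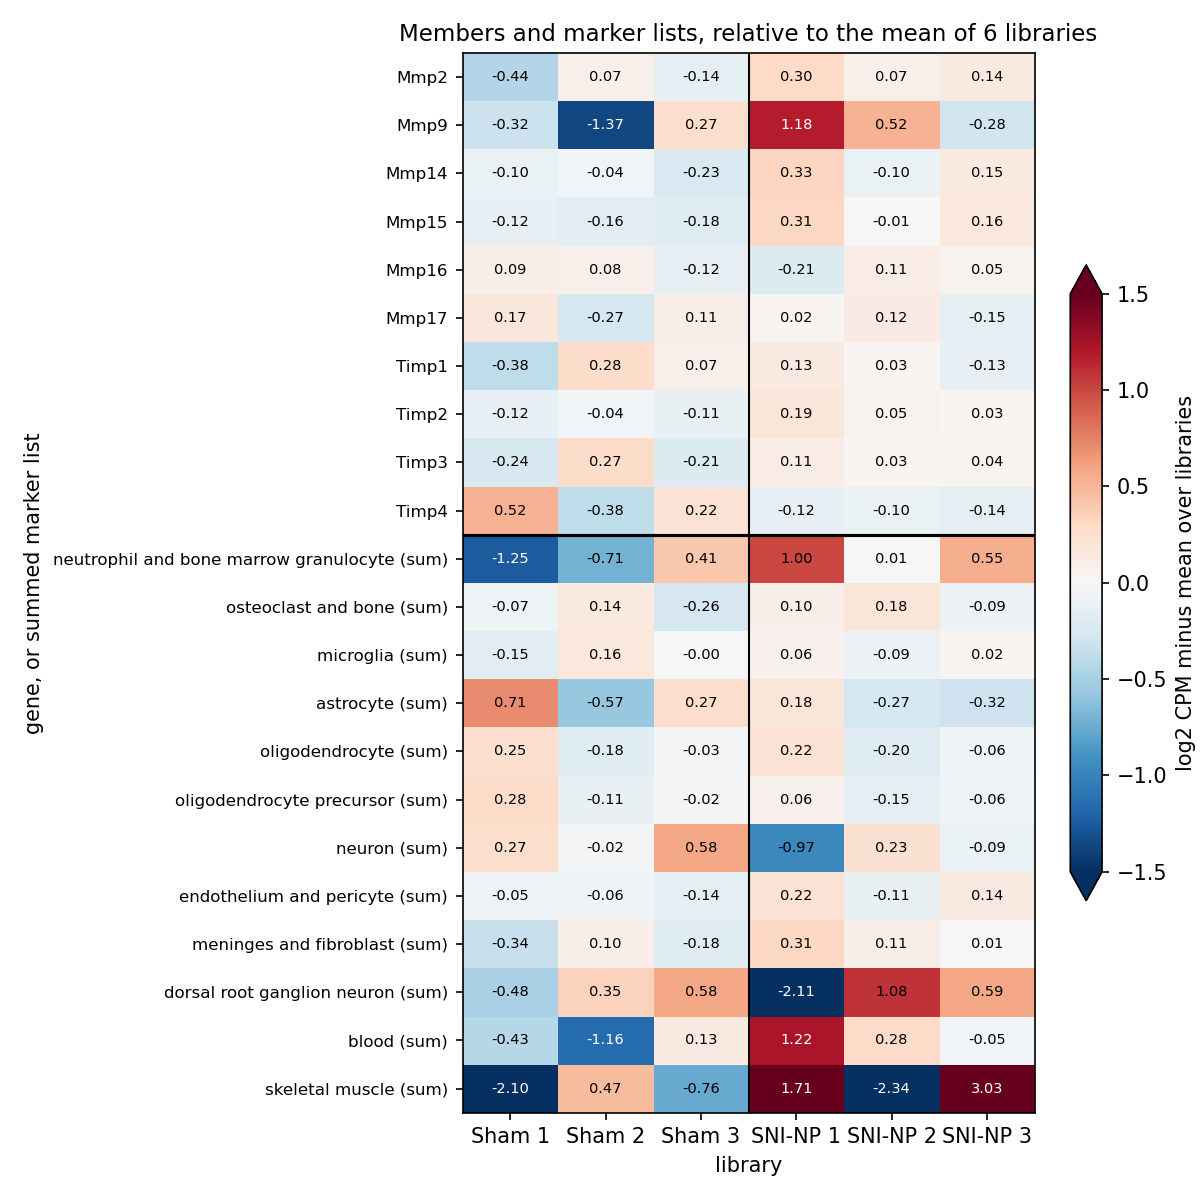
Log2 CPM of each member (above the line) and of the summed marker lists (below it) in each library, relative to the mean of the 6 libraries (printed in each cell, colours capped at 1.5). SNI-NP replicate 1 has the highest *Mmp9* (1.18) and blood sum (1.22) and the lowest ganglion neuron sum (-2.11).

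The balance of enzyme and inhibitor transcripts was described as ratios of FPKM per library. The ratio of *Mmp9* to *Timp1* was 0.0347, 0.0108 and 0.0381 in the sham replicates and 0.0687, 0.0467 and 0.0300 in the SNI-NP replicates, with overlap. *Mmp2* to *Timp2* was 0.186, 0.252 and 0.228 against 0.252, 0.237 and 0.251, which also overlapped. *Mmp14* to *Timp2* was 0.234 to 0.257 among sham and 0.229 to 0.280 among SNI-NP libraries. *Mmp2*, *Mmp14* and *Timp2*, the genes of the MMP2 activation complex, had log2 ratios of 0.33, 0.26 and 0.18, none of which passed before adjustment.

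Among the other *MMP* genes, 14 of the 16 listed were matched by symbol and 6 passed the filter on low counts. Of these, 0 had an unadjusted edgeR p under 0.05, against 10.8% of all genes tested. *Mmp8*, the neutrophil collagenase gene, which is also in the granulocyte list, was at 4.74, 7.44 and 11.9 CPM in the sham replicates and 19.4, 8.94 and 12.7 CPM in the SNI-NP replicates, a log2 ratio of 0.77 (SE 0.39). *Mmp24*, a membrane-type MMP of neurons, was at 38.5 to 61.6 CPM among sham and 37.2 to 63.6 CPM among SNI-NP libraries. *Mmp13*, a collagenase gene, ranged from 0.338 to 7.08 CPM among the sham libraries alone. The stromelysin gene *Mmp3* had 0 to 5 counts, and *Mmp7*, *Mmp10* and *Mmp12* had at most 2 counts in any library. *Mmp1*, *Mmp20*, *Mmp21* and *Mmp27* had 0 counts in all 6 libraries, which allows a level of up to 0.167 to 0.180 CPM by counting error alone.

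The related protease families were described in the same way, in a table where 10.8% of genes had an unadjusted edgeR p under 0.05. Of 8 tested ADAM genes, which encode membrane proteases that shed surface proteins, 1 passed before adjustment, *Adam8*, which was highest in SNI-NP replicate 1 at 2.01 CPM and had a log2 ratio of 1.15 (SE 0.40). *Adam10* and *Adam17*, the main sheddases, had log2 ratios of -0.38 and 0.02 and overlapping groups. Of 16 tested ADAMTS genes, which encode secreted matrix proteases, 1 passed, *Adamts7*, with a log2 ratio of 0.50 (SE 0.16). The edgeR adjusted p was 0.436 for both *Adam8* and *Adamts7*.

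Of 14 genes for MMP activation, the plasmin system and MMP clearance, 2 were higher and 1 was lower before adjustment. Over all 14426 genes tested, 708 were higher and 857 were lower. *Furin*, the convertase that activates membrane-type MMPs, was at 56.4, 58.2 and 60.1 CPM in sham libraries and 73.1, 66.8 and 75.8 CPM in SNI-NP libraries, without overlap. Its log2 ratio was 0.30 (SE 0.09), and the edgeR adjusted p was 0.426. *Plaur*, the urokinase receptor gene, was at 0.600 to 1.46 CPM against 1.67 to 4.94 CPM. *Serpini1*, which encodes the neuronal protease inhibitor neuroserpin, had a log2 ratio of -0.71 (SE 0.25), with groups that overlapped. The groups overlapped for *Reck* and *Lrp1*, which encode a membrane MMP inhibitor and an uptake receptor.

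Of 20 tested matrix substrate genes, 2 were higher and 2 were lower before adjustment, against 708 and 857 of all 14426 genes tested. The higher ones were the basement membrane genes *Nid2* (nidogen, log2 ratio 0.48, SE 0.15) and *Lamb2* (laminin, 0.35, SE 0.12). *Hapln1*, which encodes a link protein of perineuronal nets, was at 7.86, 6.70 and 6.75 CPM in sham libraries and 3.68, 3.11 and 2.14 CPM in SNI-NP libraries. The log2 ratio of -1.25 (SE 0.25) passed the adjusted threshold with DESeq2 (adjusted p = 0.00456) and not with edgeR (adjusted p = 0.294). *Tnr*, the gene of the neural matrix protein tenascin-R, had a log2 ratio of -0.99 (SE 0.34).

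Of the 10 tested genes of AP-1, NF-kB and cytokines, which act upstream of several *MMP* genes, 2 were higher before adjustment and 0 were lower. Among all 14426 genes tested these numbers were 708 and 857. *Jun* was at 73.2, 82.0 and 80.8 CPM in sham libraries and 91.5, 97.4 and 103 CPM in SNI-NP libraries, a log2 ratio of 0.31 (SE 0.10). *Rela*, an NF-kB subunit gene, had a log2 ratio of 0.30 (SE 0.10). *Tnf* had 0 counts in every library and *Il6* had 1 to 6.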

How the data were processed

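RNA-seq of spinal cord tissue in 3 sham and 3 SNI-NP libraries was used, grouped by the sample labels. Mapping by the authors was to a rat genome named Rat6 in their methods, and unique sequences were kept. The submitters' processing notes name FastQC, STAR and HTSeq, and versions, annotation release and use of strand were not given in the sources used here. For each gene, the deposited table gives an estimated count, not normalized by the authors, and an FPKM value that the authors computed. The counts of the 10 genes were whole numbers.

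Estimated counts were rounded, filtered with filterByExpr, TMM-scaled and tested with edgeR 4.0.16 (quasi-likelihood, R 4.3.3), with Benjamini-Hochberg adjustment over 14426 genes. CPM are counts scaled to the library total with TMM factors. Libraries held 16670760 to 18151156 counts, and 3 counts were 0.167 to 0.180 CPM. Standard errors follow from the quasi-likelihood statistic. Deposited FPKM served for levels between genes, for some tissue markers, for the ratios of enzyme to inhibitor and for 1 alternative. For *Mmp2*, *Mmp15* and *Timp2* it was also used to look at overlap between the groups. For likeness, log2 CPM with a prior count of 2 were used. Alternatives were DESeq2 1.42.0, RLE and upper-quartile factors, no filter, a minimum of 10 counts in every library, the replicate number as a block, limma 3.58.1 on log2(FPKM + 0.1) for genes with a mean FPKM of at least 0.1, and leaving out each library. The steps were tested on simulated data. Promoters came from RefSeq (GRCr8).

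The members and lists were chosen with earlier results of these data known. The named genes are the 10 members, those of the related lists with an unadjusted edgeR p under 0.05 (at most 5 per list), and the 5 genes most like *Mmp9* and *Timp1*. Other genes named were chosen after their values were seen. Some genes of these lists, and the summed level of the Schwann cell list, are not reported here.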

Additional observations from a re-analysis of the deposited data

How the results depend on the processing

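The number of members with an adjusted p under 0.05 was 0 in every setting run. With an unadjusted p it was 1, and it was 2 with DESeq2 (*Mmp15* and *Mmp9*), 0 with the replicate block and from 0 to 4 when 1 library was left out. Over all genes, 1565 of 14426 had an unadjusted p under 0.05, against 1710 of 17452 with DESeq2 and 1319 of 14426 with the replicate block. This number was from 908 to 2134 when 1 library was left out. An adjusted p under 0.05 was reached by 0 genes, but by 194 with DESeq2, 2 with limma on log2 FPKM, and from 0 to 222 when 1 library was left out, the highest without SNI-NP replicate 1. The causes were not tested. The sign of *Timp1* turned with the replicate block (0.019). When 1 library was left out, signs turned for *Mmp16* (-0.12 to 0.065), *Mmp17* (-0.13 to 0.057), *Timp1* (-0.19 to 0.15) and *Timp3* (-0.012 to 0.29). With the replicate block *Mmp15* had a log2 ratio of 0.31 and an unadjusted p of 0.0569. No label said whether same-numbered libraries shared more than a number. Their deviations from the group means correlated at 0.21, -0.14 and 0.05, and sham replicate 2 correlated better with SNI-NP replicate 3 (0.18). The highest value, 0.22, was between sham replicate 3 and SNI-NP replicate 2. With 3 libraries per group these values cannot decide whether the libraries were paired. In settings that kept all libraries, 67 values of the members' log2 ratios kept sign and side of the threshold, 1 newly passed (*Mmp9*, DESeq2), 1 no longer passed (*Mmp15*, replicate block) and 1 turned. Groups of 3 libraries limit what could be detected, as the intervals show.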
